A study of Saccharomyces cerevisiae with 16 samples.

Results

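On a yeast expression array, 46 of 6255 probes (0.735%) were strongly low at 23 h in both strains after early times that averaged near their starting level. RNA of Saccharomyces cerevisiae was measured on Agilent dual-colour arrays in 16 samples. A wild type (WT) and a strain labelled PHO84c, with the phenotype "abundant PHO84c", gave 8 each. No further genotype is given for either strain. Cells in logarithmic phase were washed and moved to synthetic complete medium at 500 µM phosphate, and were sampled at 0, 1, 5, 8 and 23 h. Each strain had 4 samples at 0 h (both dyes of 2 arrays) and a lone Cy3 sample at each time after that, and no group differed in medium. A tag on each sample writes the phosphate concentration in M where the protocol and the titles give the lower value used here.

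Yeast cells sense phosphate through the PHO pathway, in which the factor Pho4 turns on transporters and phosphatases, Pho84 among them, when phosphate is scarce. Cells that stay in the same medium also use up sugar and other nutrients, leave exponential growth and lower the RNA of many genes for ribosomes, replication and secretion. The labels name the strain after Pho84, the high-affinity phosphate transporter, and the series asks when each strain begins its starvation response. For the 46 probes the question is narrower, namely whether 1, 5 or 8 h taken singly already pointed towards the later fall, and in which strain.

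Values were deposited as log ratios, read here as log2 relative to the 0 h samples of the same strain, so a level cannot be compared between strains. A change is the value at a time minus the mean of the Cy3 samples at 0 h (replicates 1 and 2). A probe was a member if it had a value in all 16 samples, a mean change over 1, 5 and 8 h within 0.25 of 0 in both strains, a change at 23 h of -2.5 or lower in both strains, and strains within 2.38-fold of each other at 23 h. Members were thus selected on the 23 h change and the early mean, which are given as a description without a test. Of 5787 probes with every value, 110 were at or below -2.5 at 23 h in both strains, and 48 of these lay within the early window in both. The strain limit left out 2 of the 48, the unnamed probes 4630 (-3.81 in WT and -2.53 in PHO84c) and 13465 (-2.51 and -4.10). The early mean left out the other 62 low probes, as 33 lay above the window in at least 1 strain and 29 below it.

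Just inside the 23 h limit were probe 3150 (-2.51 in WT and -2.57 in PHO84c) and probe 11549 (-3.07 and -2.51). Just outside it were probe 10304 (-2.49 and -3.33) and BRR1, an RNA-binding protein needed for spliceosomal snRNP assembly (-2.49 and -2.53). At the early limit, probe 14731 with a WT early mean of -0.249 was a member. RIF1, a telomere length regulator, missed it at -0.2501 in WT although its 23 h changes were -2.99 and -3.36. The edge of the group is thus set by hundredths of a log2 unit.

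A gene name was listed for 12 of the members (26.1%, against 25.7% of all probes), and the other 34 are unnamed here. A name stands for the probe listed under it, and whether each name is attached to the right probe was not tested. How far a listed name speaks for its gene is limited, because the 52 probes with ribosomal protein names, which usually change together, were spread at 23 h in WT with an SD of 1.54, the same as over all probes (1.54). The PHO84c spread was likewise 1.67 over 53 ribosomal probes, against 1.68 over all. In RNA from a whole culture, less RNA per cell and fewer cells with the RNA cannot be told apart.

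At 23 h the 46 probes stood at a median log2 change of -2.76 in WT (range -3.92 to -2.51) and -2.91 in PHO84c (-4.44 to -2.51). On the linear scale that is a median fall of 6.79-fold in WT (5.70 to 15.1) and 7.51-fold in PHO84c (5.70 to 21.7), which leaves 14.7% and 13.3% of the 0 h level. As background, 23.8% of all probes tested in WT and 27.5% in PHO84c were at least 2-fold lower at 23 h with an adjusted p under 0.05, so a late fall was common on these arrays, and all 46 members pass it because they were chosen so. PHO84c was the lower strain at 33 members and WT at 13, with differences from -0.90 to 1.04 and a median of -0.09. This lean was not particular to the members. Of the 5787 probes with every value, 272 were at or below -2.5 at 23 h in PHO84c and 147 in WT. The 23 h sample of PHO84c was also the wider, with an SD of 1.68 against 1.54. The same probe was not always lowest in both strains. Probe 8537 fell most in PHO84c (-4.44, against -3.65 in WT), and GIP1 fell most in WT (-3.92, against -3.78). Across the members the 23 h changes of the strains correlated at r = 0.649, within bounds that the rule itself sets, and over all 5787 probes at 0.935.

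**Figure D1:**
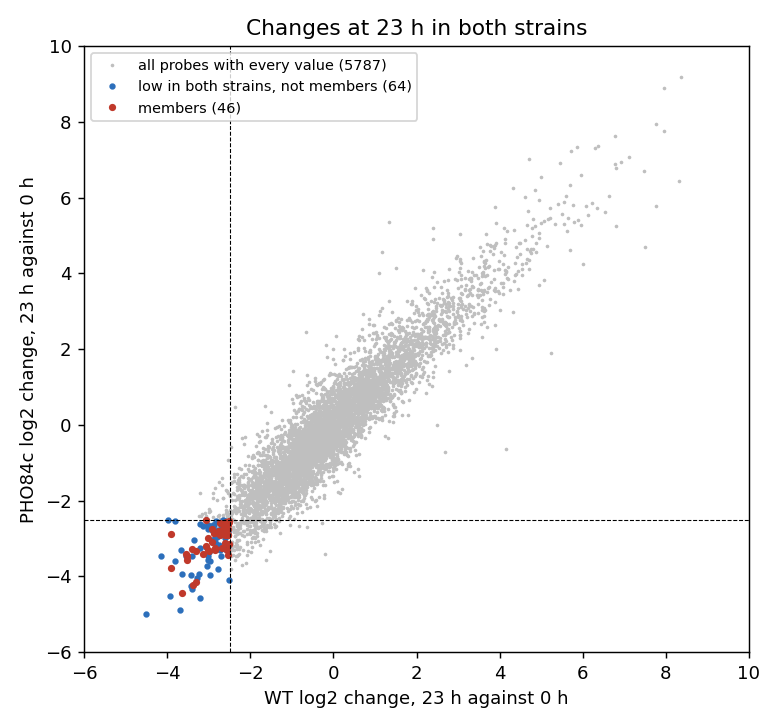
Log2 change at 23 h against 0 h in WT (horizontal axis) and PHO84c (vertical axis) for 5787 probes (grey), the 46 members (red) and the 64 other probes at or below -2.5 in both strains (blue). Dashed lines mark -2.5, and the members lie in the lower left corner between -4.44 and -2.51, mixed with the probes that the early window or the strain limit left out.

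The 12 named members are described here by role, with the deposited log2 ratio in every sample.

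Among genes of the ribosome, the probe listed as RPL15A, a protein of the large ribosomal subunit, read -0.13, 0.06, -0.10 and 0.09 in the 4 WT samples at 0 h and then -0.29, -0.09, 0.09 and -3.03 at 1, 5, 8 and 23 h. In PHO84c it read -0.11, 0.11, -0.17 and 0.15 at 0 h and 0.19, 0.02, 0.09 and -3.32 afterwards. Both 23 h samples lay far under every other sample, while the 5 and 8 h values stayed inside the 0 h range of their strain. At 1 h WT lay under that range and PHO84c above it. The falls of 7.97-fold and 9.96-fold are uncertain for the gene, since RPL15B is a near-identical copy and was not among the listed names.

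FAL1 is a nucleolar DEAD-box protein needed for the maturation of 18S rRNA. In WT its probe read -0.04, 0.02, -0.05 and 0.05 at 0 h and 0.01, 0.15, 0.22 and -2.77 at 1, 5, 8 and 23 h. The PHO84c values were -0.07, 0.07, -0.08 and 0.08 at 0 h and -0.42, 0.00, 0.16 and -2.80 later. The 23 h samples of the strains were nearly equal, but at 1 h PHO84c alone was below all its 0 h samples, and by 8 h both strains were above theirs.

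Of the traffic genes, SEC21 encodes the gamma subunit of the COPI coat, which returns vesicles from the Golgi to the endoplasmic reticulum. Its probe read -0.11, 0.05, -0.03 and 0.03 in WT at 0 h and -0.25, -0.03, -0.13 and -3.55 at 1, 5, 8 and 23 h. In PHO84c the 0 h samples read -0.02, 0.03, 0.00 and -0.01, and the later ones 0.67, 0.31, -0.35 and -3.46. PHO84c was high at 1 and 5 h and low at 8 h, each outside its 0 h range, and its early mean was near 0 because these values offset each other. WT was below its 0 h range at 1 and 8 h, by less.

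NTF2 carries the small GTPase Ran in its GDP form into the nucleus. The WT samples read 0.05, -0.02, -0.09 and 0.08 at 0 h and -0.72, 0.30, 0.07 and -2.61 at 1, 5, 8 and 23 h. The PHO84c samples read 0.02, -0.02, 0.06 and -0.06 at 0 h and 0.18, -0.08, -0.06 and -2.90 later. At 1 h the strains stood on opposite sides of 0, WT far below and PHO84c above its 0 h samples, and the WT value returned above its 0 h range at 5 h. SMP3, a mannosyltransferase of GPI anchor synthesis, read -0.01, 0.01, 0.03 and -0.02 in WT at 0 h and -0.26, 0.06, -0.14 and -2.65 later. Its PHO84c samples read -0.07, 0.07, 0.01 and -0.01 at 0 h and -0.34, -0.13, 0.11 and -2.73 later. SMP3 was low at 1 h in both strains, and at 8 h the strains stood on opposite sides of 0.

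For chromosome maintenance, RFC3 is a subunit of the clamp loader that places the sliding clamp PCNA on DNA. It read -0.01, 0.01, 0.04 and -0.03 in WT at 0 h and 0.14, 0.12, -0.04 and -2.85 at 1, 5, 8 and 23 h. In PHO84c it read 0.02, -0.02, 0.08 and -0.07 at 0 h and -0.07, -0.10, 0.03 and -3.25 later. Before 23 h no sample of RFC3 was more than 0.15 from 0. In WT the 1 and 5 h samples lay above the narrow 0 h range and the 8 h sample just below it. In PHO84c the 5 h sample lay below the 0 h range, and the 1 and 8 h samples lay inside it.

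IES4 belongs to the INO80 chromatin remodelling complex. The WT samples were at 0.13, -0.06, 0.22 and -0.22 at 0 h and at 0.22, 0.01, -0.01 and -2.70 at 1, 5, 8 and 23 h. The PHO84c samples were at -0.11, 0.10, -0.08 and 0.08 at 0 h and at -0.17, -0.23, -0.17 and -2.91 afterwards. In PHO84c the early samples lay below every 0 h sample, whereas in WT the 5 and 8 h samples lay within the wide 0 h range and the 1 h sample level with its top.

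Both named members tied to meiosis were among the lowest. GIP1 encodes a meiosis-specific partner of the protein phosphatase Glc7 that is needed to build the spore wall. Its probe read -0.01, 0.01, 0.04 and -0.03 in WT at 0 h and 0.02, 0.54, 0.12 and -3.92 at 1, 5, 8 and 23 h. In PHO84c it read -0.03, 0.03, 0.02 and -0.01 at 0 h and -0.12, 0.01, -0.04 and -3.78 later. The WT sample at 5 h was the high point, well above the 0 h range, and the PHO84c sample at that time was inside its own. RME1, a zinc-finger repressor of entry into meiosis, read 0.01, 0.00, 0.02 and -0.01 in WT at 0 h and 0.27, 0.12, 0.19 and -3.31 later. In PHO84c it read 0.01, -0.01, -0.03 and 0.03 at 0 h and -0.18, 0.02, 0.08 and -3.33 later. RME1 was above its 0 h samples at every early time in WT, against a low value at 1 h in PHO84c.

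The signalling gene PTC1, a type 2C protein phosphatase that acts on the osmotic stress MAP kinase pathway, was the noisiest named member at 0 h. In WT it read 0.37, -0.22, 0.25 and -0.27 at 0 h and -0.08, -0.18, -0.14 and -3.29 at 1, 5, 8 and 23 h. In PHO84c it read -0.14, 0.13, -0.12 and 0.11 at 0 h and 0.04, -0.27, 0.05 and -4.24 later. All 3 early WT samples lay inside the 0 h range, so their deviations were not larger than the spread of the 0 h samples, and in PHO84c the 5 h sample lay below that range.

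WWM1, a WW-domain protein that binds the yeast metacaspase, read -0.11, 0.05, 0.06 and -0.05 in WT at 0 h and 0.01, 0.07, -0.09 and -2.89 later. In PHO84c it read 0.01, -0.01, 0.01 and -0.01 at 0 h and 0.23, 0.17, -0.07 and -2.85 later. The 1 and 5 h samples of PHO84c were above its narrow 0 h range and the 8 h sample below it. ARG81, a zinc-finger regulator of arginine genes, read 0.03, -0.01, 0.06 and -0.05 in WT at 0 h and 0.10, -0.11, -0.03 and -2.67 at 1, 5, 8 and 23 h. The PHO84c samples of ARG81 read -0.13, 0.12, -0.18 and 0.16 at 0 h and stepped down from 0.38 through 0.10 and -0.21 to -2.89 later, the same order of early times as in SEC21.

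**Figure D2:**
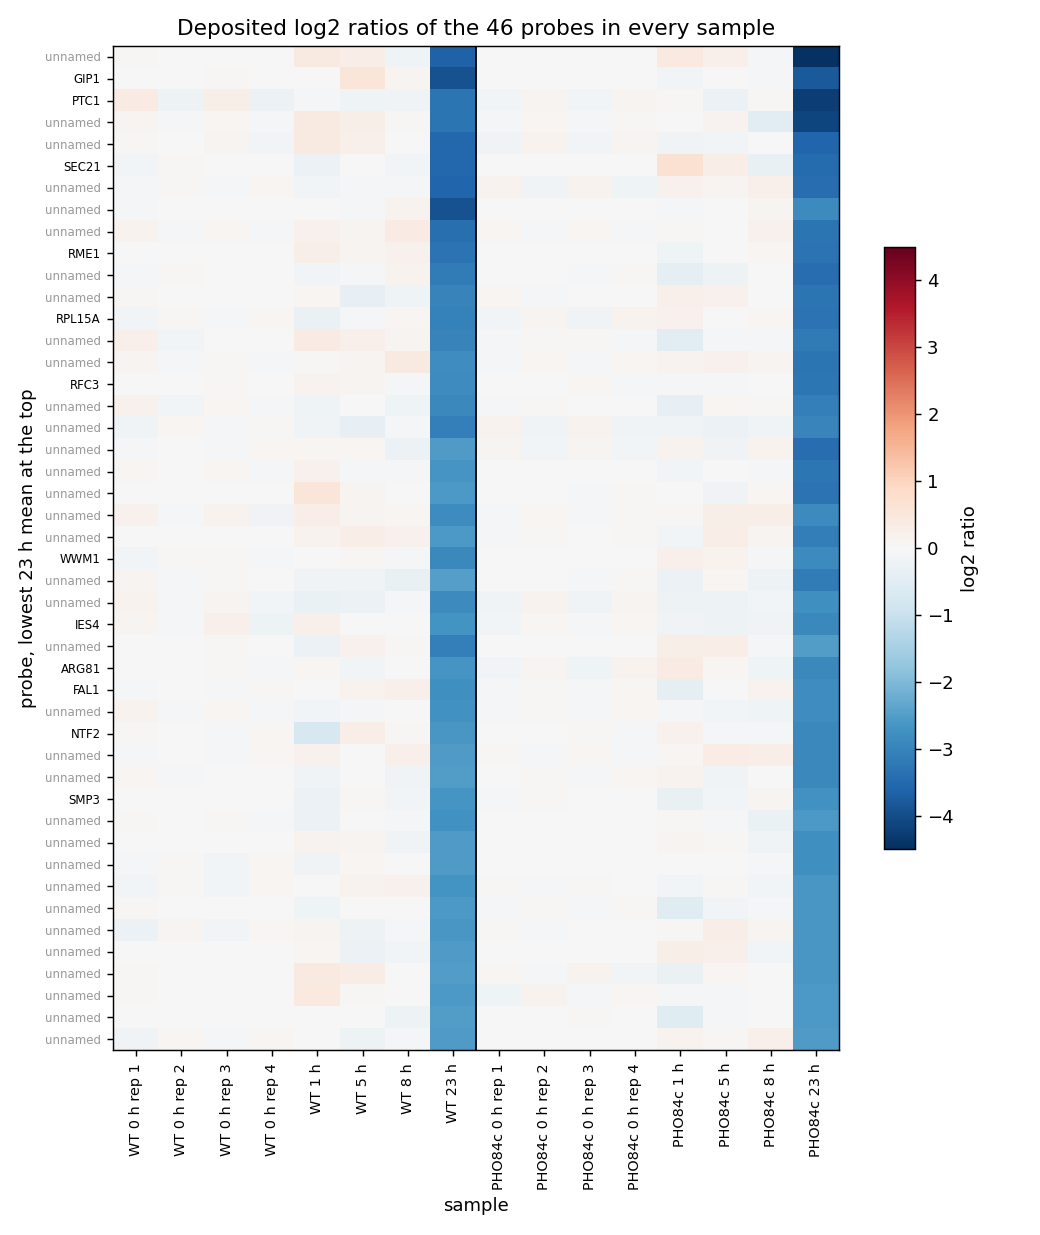
Deposited log2 ratio (colour scale) of the 46 probes (rows, lowest 23 h mean at the top) in all 16 samples (columns). The 23 h columns are dark blue for every row, from -4.44 to -2.49, and the 0 h and early columns are pale, with isolated shades such as NTF2 in WT at 1 h (-0.72) and SEC21 in PHO84c at 1 h (0.67).

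The early medians of the members lay near 0 at each time, which the rule's bound on the early mean largely fixes. The median change of the 46 probes in WT was 0.04 at 1 h, 0.03 at 5 h and -0.02 at 8 h. In PHO84c it was -0.01, 0.02 and -0.03. At 8 h, the last time before the fall, 26 members were below 0 in each strain, 19 of them in both, while 13 were above 0 in both. The lowest 8 h change was -0.35 in WT and -0.48 in PHO84c (probe 1127), and 0 members were beyond 0.5 in either strain at that time, a range that the same bound narrows. At 1 h the range was wider, from -0.73 (NTF2) to 0.54 in WT and from -0.56 to 0.67 (SEC21) in PHO84c.

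A flat early mean did not make each early time flat. Within 0.25 of 0 at every early time in both strains were 13 members, RFC3, WWM1 and IES4 among them, and 33 were beyond it at some time. Of these, 7 went beyond 0.5, among them NTF2, SEC21 and GIP1, and 0 beyond 1. Deviations were most frequent at 1 h, where 14 members in each strain were beyond 0.25. At 5 h they numbered 10 in WT and 8 in PHO84c, and at 8 h 3 and 5. The excess at 1 h was not particular to the members. Of 534 probes inside the same window that stayed within 0.5 at 23 h, 119 in WT and 171 in PHO84c were beyond 0.25 at 1 h. At 8 h these were 76 and 84. Of all 5787 probes with every value, 2606 and 3007 were beyond it at 1 h, and 2231 and 2039 at 8 h.

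A steady descent through 1, 5 and 8 h was seen at 14 members in WT and 9 in PHO84c, and at 2 in both. The opposite order was seen at 8 and 10. The lowest early time was 8 h at 15 members in WT and 13 in PHO84c, fewer than the 19 in each strain whose lowest time was 1 h. Because the rule holds the early mean near 0, a low value at 1 time obliges higher values at the others, so these orders are not independent of it. They were counted for the members alone, so whether other probes had the same orders was not tested.

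**Figure D3:**
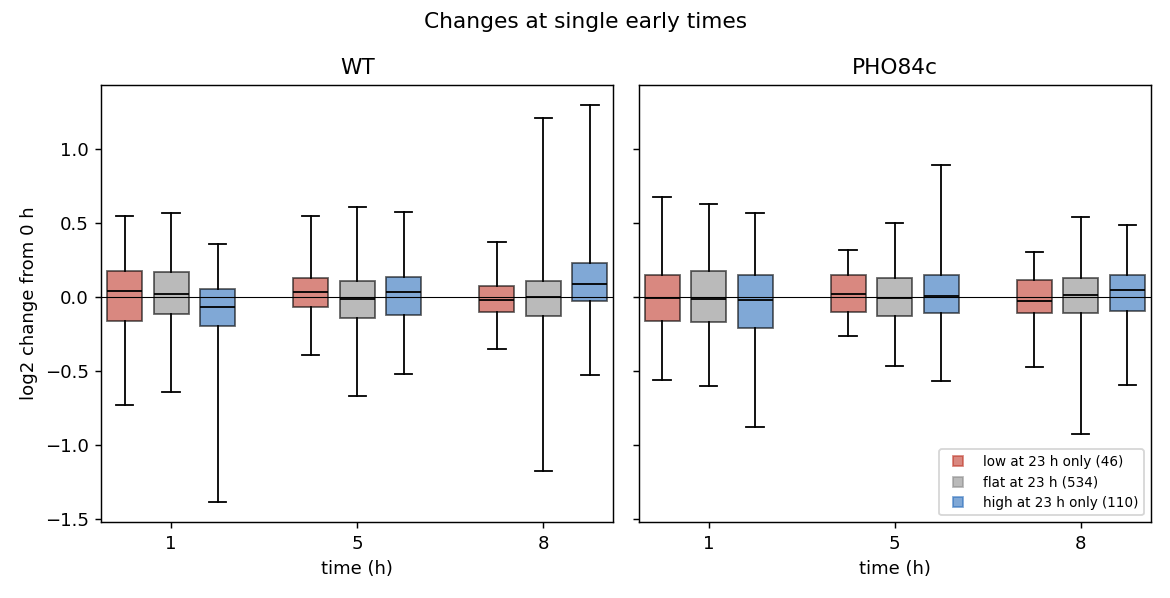
Log2 change from 0 h at 1, 5 and 8 h in WT (left) and PHO84c (right) for the 46 members (red), 534 probes that met the same early limits and stayed within 0.5 at 23 h (grey) and 110 probes that met them and rose by 2.5 or more (blue). Boxes span the quartiles with the median as a line, and whiskers reach the lowest and highest probe. The member medians lie between -0.03 and 0.04 at all 3 times in both strains.

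What the rule did not use is the contrast among the early times. For each strain, the value at a time was set against the mean of the other early times, which involves neither 0 nor 23 h. The window on the early mean still leaves fewer probes with a large deviation at a single early time. The members are therefore also set beside the 534 flat probes, which met the same window and stayed within 0.5 at 23 h in both strains. The contrasts were tested with limma over all probes. The 0 h samples supplied the spread, and the unreplicated later samples were taken to share it. Because the labels do not say whether the 0 h samples were separate cultures, the p-values cover a spread that may be technical. A call needed an adjusted p under 0.05 and a 2-fold difference.

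In WT, 0 of the 46 members were called in the 1, 5 or 8 h contrast, where 1.22%, 0.6% and 1.13% of all 6170 probes tested were. PHO84c also had 0 at each time, where 1.12%, 0.247% and 0.775% of 6068 were called. Of the 534 flat probes, 0, 1 and 3 were called in WT and 0, 0 and 1 in PHO84c, so few calls were common to probes inside the window. Limma gave an unadjusted p under 0.05 for 8, 5 and 7 members in WT and for 14, 5 and 14 in PHO84c. Over all probes it did so for 1751, 1472 and 1112 of 6170 in WT. In PHO84c the counts over all probes were 2013, 806 and 1861 of 6068. Without the size limit, 4, 1 and 1 members passed the adjusted p in WT, against 11.2%, 4.73% and 4.83% of all probes. In PHO84c 6, 0 and 6 passed, against 15%, 0.428% and 11.7%. At 8 h in PHO84c 5 of the 6 were lower and 1 higher. There the flat probes had 17 lower and 16 higher, and all probes 427 and 281. Of these 6 members, SEC21 alone passed with each 0 h replicate left out. Among the flat probes of WT 5.06%, 1.69% and 3.18% passed, where the members had 8.70%, 2.17% and 2.17%. For PHO84c the flat probes gave 9.93%, 0% and 6.18%, and the members 13%, 0% and 13%. The difference between members and flat probes was not tested. The member medians of these contrasts were 0.07, 0.01 and -0.02 in WT and -0.01, 0.06 and 0.04 in PHO84c, where all probes had 0.02, -0.01 and 0.01, and -0.01, 0.00 and 0.02.

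The members that passed in at least 1 strain numbered 12, with 5 in WT, 9 in PHO84c and 2 in both, and 4 had a listed name. NTF2 was lower in WT at 1 h than at its other early times (-0.90 ± 0.147 on the log2 scale, limma adjusted p = 0.0137). SEC21 passed at 8 h in PHO84c, where it was lower (-0.84 ± 0.101, limma adjusted p = 0.0057). It also passed at 1 h in that strain, where it was higher by 0.69 ± 0.101 (limma, adjusted p = 0.00862). FAL1 was lower at 1 h in the PHO84c strain (-0.51 ± 0.0984, limma adjusted p = 0.0186), and GIP1 was higher in WT at 5 h (0.47 ± 0.0972, limma adjusted p = 0.0455). Of these 4 genes, SEC21 was the one that passed with a low 8 h, the time nearest its later fall, and the low 1 h value of NTF2 was followed by a value above 0 at 5 h. The NTF2, SEC21 and FAL1 results within a strain passed with each 0 h replicate left out in turn. Leaving one out changes only the spread, never the difference, so the lone early samples themselves were not tested. Within a strain, leaving out replicate 1 or 2 gave the same number of passes over all probes, as did replicate 3 or 4. These fits are therefore not all separate checks. The GIP1 result was lost when any single 0 h replicate of either strain was left out, at limma adjusted p-values of 0.0735 to 0.100 and 0.47 each time.

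Both members that passed in each strain were unnamed, and of them probe 8537, whose fall in PHO84c was the deepest, had a like course in the strains. It changed by 0.40, 0.28 and -0.20 at 1, 5 and 8 h in WT and by 0.44, 0.21 and -0.08 in PHO84c. Its 8 h contrast in WT was -0.54 ± 0.0856 (limma adjusted p = 0.0161), and the PHO84c contrast was -0.41 ± 0.0856 (limma, adjusted p = 0.0285). The WT result passed with each 0 h replicate left out. The PHO84c result was lost without any single PHO84c replicate and without WT replicate 1 or 2, and its limma adjusted p ranged from 0.0471 to 0.0647. The other, probe 11549, passed at different times, as lower at 1 h in WT and as lower at 8 h in PHO84c. It changed by -0.26, 0.17 and 0.04 at 1, 5 and 8 h in WT and by 0.27, 0.28 and -0.10 in PHO84c. Neither result passed with any single 0 h replicate left out. In PHO84c, probe 1127 was lower at 8 h (-0.56 ± 0.116, limma adjusted p = 0.0279). Probe 3150 of that strain was lower at 1 h (-0.53 ± 0.085, limma adjusted p = 0.0104). In WT, probe 3554 was higher at 1 h (0.46 ± 0.0861, limma adjusted p = 0.0204). Leaving out 0 h replicates, the result of probe 1127 was lost in 4 of 8 fits (PHO84c replicate 3 or 4, WT replicate 1 or 2), with limma adjusted p-values of 0.0453 to 0.0620. Probe 3554 was lost in 4 of 8 (replicate 1 or 2 of either strain), at 0.0373 to 0.0539, and the 1 h result of probe 3150 in 0 of 8. Probes 9694 (lower) and 3150 (higher) also passed at 8 h in PHO84c, and both results were lost in each of the 8 fits.

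**Figure D4:**
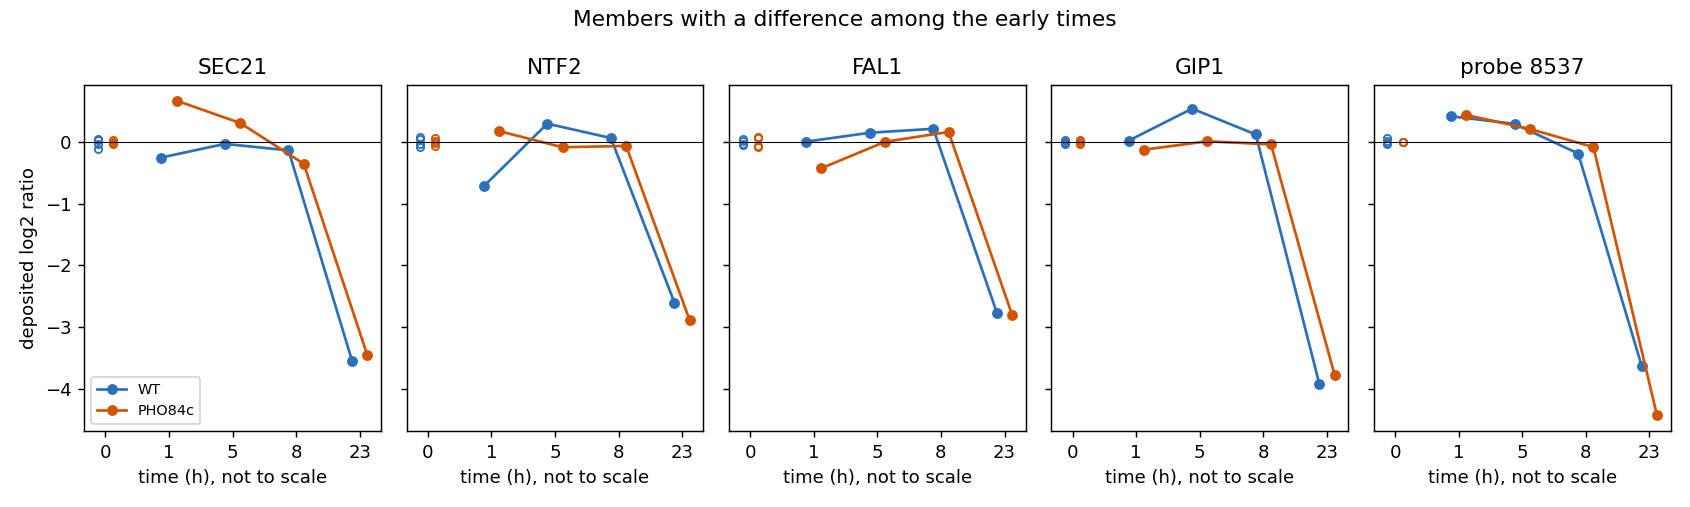
Deposited log2 ratio against time (categories, not to scale) for SEC21, NTF2, FAL1, GIP1 and probe 8537 in WT (blue) and PHO84c (orange), with the 4 samples at 0 h of each strain as small points and lines through the lone later samples. SEC21 and FAL1 leave the 0 h values at 1 h in PHO84c (0.67 and -0.42), NTF2 at 1 h in WT (-0.72), GIP1 at 5 h in WT (0.54), and probe 8537 at 1 h in both strains (0.42 and 0.44).

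The strain difference of each contrast, PHO84c minus WT, was tested in the same fit. At 1 h, 1 of the 46 members was called, where 1.55% of 6013 probes were. At 5 h and at 8 h the count was 0, against 0.266% and 1.23%, with 5 and 9 members at an unadjusted limma p under 0.05. Over all probes, 763 and 1333 of 6013 were at such an unadjusted p. The member called was NTF2, with a difference of 1.15 ± 0.207 (limma adjusted p = 0.0288). It arose from -0.73 in WT and 0.18 in PHO84c at 1 h against means of 0.17 and -0.07 at 5 and 8 h.

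SEC21 differed between the strains by 0.86 ± 0.143 at 1 h (limma adjusted p = 0.0234) and by -0.85 ± 0.143 at 8 h (limma adjusted p = 0.0295), both under 2-fold. Any size counted, 4, 0 and 2 members passed at 1, 5 and 8 h, against 6.3%, 0.299% and 4.26% of all probes. The NTF2 and SEC21 differences were lost when any single PHO84c replicate at 0 h was left out, and the SEC21 difference at 8 h also when any single WT replicate was, with the same values of 1.15, 0.86 and -0.85. Each strain was hybridised on arrays of its own scans, so strain and slide cannot be told apart. The array block number of a time was also shared between the strains.

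Over the members, the contrasts of the strains showed little likeness. Pearson's r between WT and PHO84c across the 46 probes, which are not independent, was -0.00289 at 1 h, 0.102 at 5 h and 0.143 at 8 h. The 534 flat probes gave 0.278, 0.268 and 0.159, and all 5787 probes 0.301, 0.316 and 0.244. The early contrasts also varied as much in the flat probes as in the members. At 1 h the SD was 0.254 in the members and 0.233 in the flat probes in WT, and 0.263 and 0.271 in PHO84c. At 8 h it was 0.195 and 0.225 in WT, and 0.255 and 0.247 in PHO84c.

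Genes that work with the named members stood on both sides of 0 at 23 h. These partners were picked after the members were known, and the values are log2 changes at 23 h in WT and then in PHO84c, with no test. For SEC21, the COPI subunit RET2 was the listed partner, at -1.26 and -1.65. RFC5, of the same clamp loader as RFC3, stood at -0.31 and -0.39. POL30, the sliding clamp itself, stood at -2.09 and -2.87, but was taken from the list of DNA replication genes below, whose probes were called both ways. Of 13 other INO80 complex genes 8 had a probe, and they went both ways. ARP5 was at 2.85 and 2.57 and NHP10 at 2.46 and 2.31, while IES5 was at -1.35 and -1.86 and the ATPase INO80 at 0.96 and 0.63.

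In the Ran cycle that NTF2 serves, all 3 listed partners were below 0. Most probes were: 3506 of 6198 tested in WT and 3365 of 6136 in PHO84c lay below 0 at 23 h. Ran itself (GSP1) stood at -1.12 and -1.32, its exchange factor SRM1 at -2.05 and -0.83, and its GTPase-activating protein RNA1 at -1.22 and -1.69. ARG80, which works with ARG81 at arginine genes, stood at 1.76 and 2.20, and the phosphatases PTC3 and PTC4, relatives of PTC1, at 2.46 and 3.14 and at -0.98 and -0.52. GPI10, like SMP3 a mannosyltransferase of GPI anchor synthesis, stood at 0.08 and 0.75.

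Of 23 gene lists, 6 held a named member, and probes listed there were called at 23 h in both directions. The lists were drawn up with earlier results of these data known, and the members' own falls are part of each count. In the background, WT had 20.8% of all probes higher and 23.8% lower around a median of -0.20, and PHO84c 23.1% and 27.5% around -0.19. The ribosomal protein probes of WT had 10 of 52 higher and 11 lower (median -0.15), and those of PHO84c 12 and 14 of 53 (-0.14). Ribosome biogenesis, the list of FAL1, had 11 and 10 of 49 in WT (0.00) and 14 and 11 of 47 in PHO84c (-0.20). The secretory list of SEC21 had 10 and 9 of 33 in WT (0.05), and 9 and 9 of 34 in PHO84c (-0.15). DNA replication and chromosome segregation, with RFC3, had 3 and 5 of 16 (-0.14), and 5 and 7 of 17 (-0.39).

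Lists of mating and meiosis genes were short. Of 6 sporulation probes, WT had 4 lower and 1 higher (median -1.37), and PHO84c 4 lower and 0 higher (-1.57). Besides GIP1, those lower in WT were SPR1 (-2.39), a spore glucanase, SPS1 (-1.54), a kinase of spore wall formation, and SPO69 (-1.21), a meiotic cohesin. The probe called higher was GAS4, a glucanosyltransferase of the spore wall, at 4.16 in WT against -0.63 in PHO84c. Of 6 haploid-specific or mating-type probes, RME1 among them, 2 were called lower and 1 higher in each strain (medians -0.13 and -0.47). The calls were not all the same probes in the strains. Along with RME1, WT had MFA1 lower, the a-factor gene (-1.24, where PHO84c showed -0.36). PHO84c instead had STE18 lower (-1.04, where WT showed 0.09). STE3, the a-factor receptor of alpha cells, was the higher one in both (2.44 for WT, 2.10 for PHO84c). MFA2 and STE6 were called in neither strain. Their WT changes were -0.36 and 0.47, and their PHO84c changes -0.23 and -0.57.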

How the data were processed

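RNA from 16 samples was compared on dual-colour arrays. Per the labels, RNA was amplified and labelled with an Agilent kit and images were read with SpotReader. For background correction, normalization and the merging of scans, methods were not given in the sources used here. Ratios deposited by the authors were read as log2, a scale that the file does not state. On that reading, the linear values of the members in each pair of 0 h samples of a strain and dye averaged 1 to within 0.0786. This cannot settle the base of the logarithm, because the 0 h values of the members are small. They ranged from -0.27 to 0.37 in WT and from -0.18 to 0.17 in PHO84c. Other bases were not tested. Every fold value, fold limit and percentage of the 0 h level rests on the log2 reading.

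Contrasts were fitted with limma 3.58.1 in R 4.3.3 (lmFit, eBayes) to all 16 samples and 6254 features, with a mean per strain and time, a dye term per strain and a random block for the array (correlation 0.761, residual degrees of freedom 4). P-values were adjusted by Benjamini-Hochberg over all probes tested. The number of arrays limits precision, and ratios carry no signal level, so dim probes could not be left out.

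Named are all members with a listed gene name (at most 30), all 12 found in the R64 reference table, and up to 2 unnamed probes each way per comparison. The members, lists and rules were chosen with earlier results of these data known. Deviations of same-numbered 0 h samples from the 0 h mean of their strain correlated between strains at -0.238 to -0.153. Same-numbered samples were thus not alike, but values below 0 for every number are not an absence of relation. The fit takes the 0 h samples of the strains as independent, which was not tested. Alternatives changed centring, normalization, dye and array terms, thresholds and 0 h replicates.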

Additional observations from a re-analysis of the deposited data

Results flagged for a closer look

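For 2 named members the difference between an early time and the other early times was itself unlike in the strains, by the interaction contrast in limma (PHO84c minus WT). SEC21, the COPI coat subunit, differed by 0.86 ± 0.143 at 1 h and by -0.85 ± 0.143 at 8 h (limma adjusted p = 0.0234 and 0.0295). Its changes at 1, 5 and 8 h were 0.67, 0.31 and -0.35 in PHO84c and -0.22, -0.000315 and -0.11 in WT. NTF2, the nuclear transport factor, differed by 1.15 ± 0.207 at 1 h (limma adjusted p = 0.0288), where WT had changed by -0.73 and PHO84c by 0.18. All of these differences missed the adjusted p of 0.05 when any single PHO84c replicate at 0 h was left out, and SEC21 at 8 h also without any single WT replicate. The limma adjusted p then ranged over the 8 fits from 0.0251 to 0.0592 for NTF2, from 0.0401 to 0.0548 for SEC21 at 1 h and from 0.0532 to 0.0691 at 8 h. Each rests on 1 array per strain and time, and the part of the array was not tested.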

How the results depend on the processing

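Which probes belong depends on the processing. The 46 members became 24 with each sample centred on its median, since the 23 h median lies below 0, and 0 with quantile normalization, which gives every sample the same spread. A 23 h limit of -2 gave 118 and one of -3 gave 12. An early window of 0.5 gave 83, one of 0.15 gave 19, and a window on each early time gave 13. Leaving out a 0 h replicate gave 43 to 47.

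With no minimum size, members called numbered 4, 1 and 1 in WT at 1, 5 and 8 h, 6 and 6 in PHO84c at 1 and 8 h, and 4 and 2 for the strain difference at 1 and 8 h. The single strain call at 1 h, NTF2, became 0 under quantile normalization and with the 0 h replicate number as a block across strains, and 0 to 1 when replicates were left out. That replicate block was added after seeing the data, without the array term, because both could not be fitted together. Adjusted passes over the 9 contrasts, 24 in the main setting, were 0 under the block and under quantile normalization, 8 to 15 without a replicate, and 32 with no array block or a common dye term. Over all probes, passes numbered 3582 in the main setting, 295 under the block (each of them also among the 3582) and 0 under quantile normalization. They numbered 1671 to 2612 without a replicate, 5003 with no array block and 5691 with a common dye term. In these settings the member counts thus moved in the same direction as those of all probes. Of 17 alternatives, NTF2 passed in 15 (WT, 1 h) and 11 (strain difference), FAL1 in 15 and GIP1 in 6. SEC21 passed in 15 at 1 h and 15 at 8 h in PHO84c, and in 11 and 7 for the strain differences. The sign was kept in 17 of 17 each, but only median centring and quantile normalization could have changed it. The other settings leave the size and sign of an early contrast as they are and alter only its spread. The array count limits precision, and the cause of these shifts was not tested where none is named.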

Other observations

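The opposite group, 110 probes with the same flat early mean and a change of 2.5 or more at 23 h in both strains, had early contrasts in WT that leaned one way. Their median 8 h contrast, 8 h minus the mean of 1 and 5 h, was 0.14 in WT and 0.04 in PHO84c, and 26 of the 110 were below 0 in WT against 51 in PHO84c. The 46 members had medians of -0.02 and 0.04, with 25 and 20 below 0. At 1 h the 110 probes had a median contrast of -0.12 in WT and -0.08 in PHO84c. In limma, 1 of the 110 was called 2-fold higher and 0 lower at 8 h in WT, against 34 and 36 of all 6170 probes tested. At 1 h in WT 0 were called higher and 2 lower, against 11 and 64 of all probes. Without the size limit, 14 of the 110 (12.7%) passed at 1 h in WT, all of them lower. Over all probes 11.2% passed there, 375 lower and 319 higher. The medians of the 110 probes are a description without a test.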
